A study of Mus musculus with 15 samples.

Results

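The enzymes that make and break down catecholamines were followed in mouse Purkinje cells (PCs) over the first postnatal weeks. The group holds 8 genes of the 38561 gene IDs in the count files: *Th*, *Ddc* and *Dbh* of the synthesis route, *Gch1*, *Pts* and *Qdpr* of the cofactor route, and *Maoa* and *Maob* of breakdown. *Th* was selected on the late increase of its own level in these samples, so its values are a description and carry no test. The other 7 genes were chosen by their function, and those with enough counts entered the main tests. Only 5 of the 8 genes (*Th*, *Pts*, *Qdpr*, *Maoa* and *Maob*) had enough counts to pass the expression filter, which kept 14293 genes, while *Ddc*, *Dbh* and *Gch1* did not.

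Tyrosine hydroxylase (TH) turns tyrosine into L-DOPA and is the rate-limiting enzyme of catecholamine synthesis. DOPA decarboxylase (DDC) turns L-DOPA into dopamine, and dopamine beta-hydroxylase (DBH) turns dopamine into noradrenaline. TH works only with tetrahydrobiopterin (BH4), which is built from GTP by GTP cyclohydrolase 1 (GCH1), 6-pyruvoyltetrahydropterin synthase (PTS) and sepiapterin reductase (SPR), and is regenerated after use with the help of dihydropteridine reductase (QDPR). Monoamine oxidases A and B (MAOA, MAOB) sit on the outer mitochondrial membrane and oxidize monoamines. PCs are GABAergic neurons, yet TH is known to appear in a subset of mouse PCs, in a banded pattern that partly follows that of zebrin II, the product of *Aldoc*.

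PCs were cut out of sections by laser from male mice whose strain is given as C57/BL6 in the methods and C56/BL6 in the labels, with no genetic change or treatment named, at postnatal day 0, 4, 8, 14 or 21 (P0, P4, P8, P14 and P21). Each time point had 3 biological replicates, 15 samples in all. Single soma were collected from P4 on, whereas at P0 clusters of PCs were taken. Markers of the labelled cell type were strong. The summed level of 6 genes that mark PCs, among them *Calb1* and *Pcp2*, ran from 4549 to 6007 CPM at P0 and from 36886 to 46640 CPM at P21. Other cells were present too. The summed level of 8 glial markers ran from 3866 to 5643 CPM at P0, from 8169 to 9795 CPM at P8 and from 3063 to 4546 CPM at P21, and that of 5 oligodendrocyte markers from 13.7 to 35.9 CPM at P0 and from 396 to 845 CPM at P21. Depth ran from 3409371 to 7814951 counts on genes per sample. CPM are counts per 1000000 of the TMM-scaled library size. In such bulk samples, fewer cells that express a gene and less RNA per cell cannot be told apart.

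The stretches just before the starts of transcription of *Th*, of *Gch1* and of *Gchfr* (the gene of the GCH1 feedback regulator) are shown because these genes were near 0 early and had counts late. They are the 250 bases before the RefSeq start on GRCm38.p6, from 5′ to 3′ on the strand of the gene. They lie at chr7:142899996-142900245 (minus strand), chr14:47189414-47189663 (minus strand) and chr2:119167538-119167787 (plus strand). Capitals mark the cyclic AMP response element (CRE), TGACGTCA, in *Th* and its half-site, TGACG, in *Gch1*.
Th: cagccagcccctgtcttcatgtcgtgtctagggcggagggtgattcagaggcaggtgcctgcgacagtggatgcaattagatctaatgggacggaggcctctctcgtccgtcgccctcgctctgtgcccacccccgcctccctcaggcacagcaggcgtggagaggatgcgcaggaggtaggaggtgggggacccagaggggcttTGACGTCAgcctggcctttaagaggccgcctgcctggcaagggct
Gch1: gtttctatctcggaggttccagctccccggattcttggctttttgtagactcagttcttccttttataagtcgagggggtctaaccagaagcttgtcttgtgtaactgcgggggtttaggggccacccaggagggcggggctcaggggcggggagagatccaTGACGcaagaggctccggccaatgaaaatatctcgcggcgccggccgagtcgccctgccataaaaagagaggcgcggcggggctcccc
Gchfr: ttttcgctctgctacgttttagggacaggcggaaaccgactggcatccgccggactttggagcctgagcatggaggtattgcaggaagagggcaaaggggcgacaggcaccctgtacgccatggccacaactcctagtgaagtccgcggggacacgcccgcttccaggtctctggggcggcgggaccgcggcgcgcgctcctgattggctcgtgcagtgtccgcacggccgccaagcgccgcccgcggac
The full CRE, which reads the same on both strands, lay 45 to 38 bases before the *Th* start, and 1.55% of the 32851 promoter windows of this length held one. The half-site, which also lies within each full CRE, was found 88 to 84 bases before the *Gch1* start, and 17.8% of windows held it on either strand. Half-sites were also found 222 to 218 bases before the start of *Dbh*, which had no count in any sample, and 209 to 205 bases before that of *Maoa*. None of the letters searched (TGACGTCA, TGACG, AAAGGTCA for the NR4A factors and TATAAA, on both strands) was found in the *Gchfr* window. On the opposite strand, AAAGGTCA lay 73 to 66 bases before 1 of the 2 *Ddc* starts, and 1.34% of windows held it. TATAAA lay, also on the opposite strand, 68 to 63 bases before that *Ddc* start and 188 to 183 bases before the *Gch1* start (12.4% of windows). Promoters were matched for 7 of the 8 genes. A match is a description of the letters, not a site shown to be used.

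*Th* (ENSMUSG00000000214, chromosome 7, 142892752 to 142931128, minus strand, GRCm38) had no count in any of the 6 samples of P0 and P4. At P8 replicates 1, 2 and 3 had 0, 12 and 8 counts, or 0, 2.29 and 1.45 CPM. At P14 they had 3.13, 23.2 and 20.7 CPM, and at P21 117, 159 and 21.8 CPM. The gene was thus first seen at P8, at a handful of reads, and its level differed widely among samples of the same age. P21 replicate 3 lay within the range of P14, so these time points overlapped. The mean level was 15.7 ± 10.9 CPM at P14 and 99.4 ± 70.4 CPM at P21 (SD, n = 3 each). Over the summed counts, the level at P21 was 5.72-fold that at P14 and 69.8-fold that at P8, and at least 449-fold that at P0, taking 3 counts over the P0 samples as the floor. Averaged over all samples, *Th* stood at the 51.2 percentile of the genes tested.

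**Figure D1:**
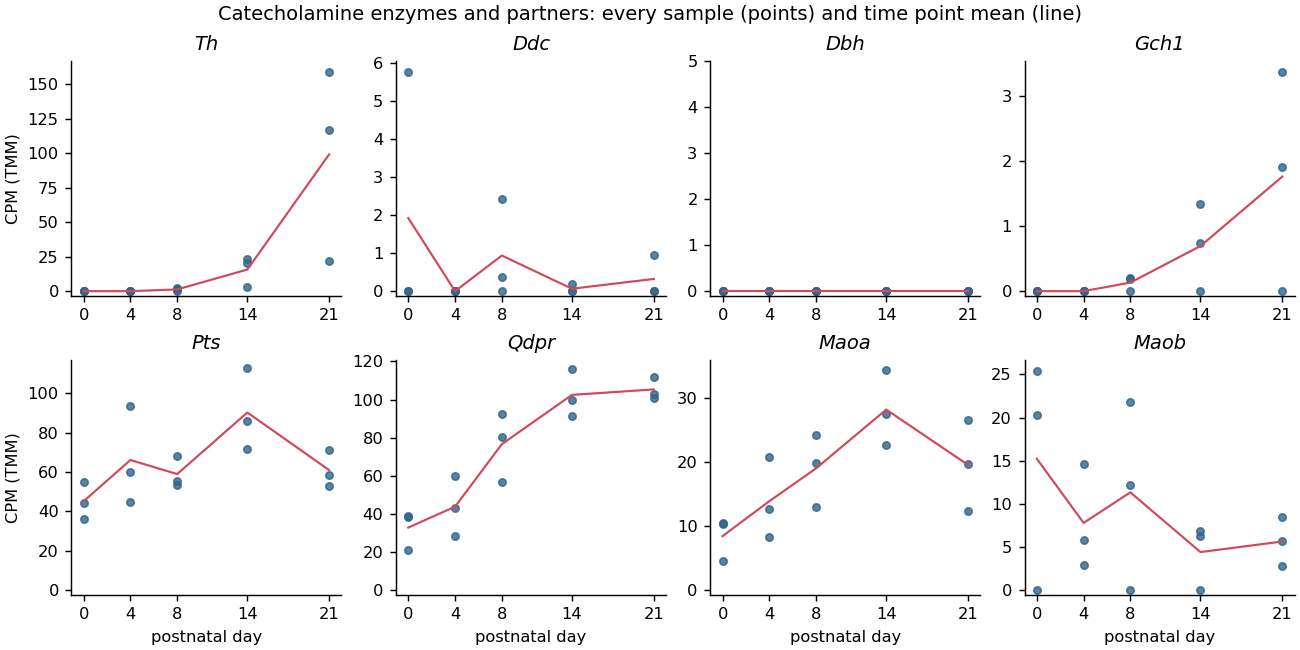
CPM (y axes, each with its own range) against postnatal day (x axes) for the 8 genes, with a point for each of the 15 samples and a line through the means of the time points. *Th* stays at 0 up to P4 and reaches 159 CPM at P21, *Qdpr* climbs from P4 to P14 and then holds at about the same level, and *Ddc*, *Dbh* and *Gch1* stay under 6 CPM.

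The 2 enzymes that act after TH showed little or no RNA. *Ddc* (ENSMUSG00000020182, chromosome 11, 11814101 to 11898144, minus strand) had 50 counts over 5 of the 15 samples, 29 of them in P0 replicate 2 (5.75 CPM). At P8 replicates 1, 2 and 3 had 12, 2 and 0 counts, at P14 0, 0 and 1, and at P21 0, 0 and 6. So where *Th* was highest, in P21 replicates 1 and 2, *Ddc* had no count. The sample with the most *Ddc* counts was of P0, an age at which *Th* had none in any sample. Without the expression filter its slope with postnatal day missed the threshold (edgeR quasi-likelihood test, Benjamini-Hochberg adjusted p = 0.47). *Dbh* (ENSMUSG00000000889, chromosome 2, 27165233 to 27183200, plus strand) had 0 counts in all 15 samples, which allows a level of up to 0.0383 CPM over the samples together. This limit covers counting error only. *Pnmt*, whose product makes adrenaline from noradrenaline, had counts only in P0 replicates 2 and 3 (6.75 and 5.88 CPM).

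*Gch1*, the gene of the enzyme that opens BH4 synthesis and limits its rate (ENSMUSG00000037580, chromosome 14, 47153895 to 47189413, minus strand), had 43 counts over 6 samples. There were none at P0 and P4. At P8 replicates 1, 2 and 3 had 1, 1 and 0 counts, at P14 4, 0 and 7, and at P21 0, 9 and 21. The counts thus lay at P8 and later, as those of *Th* did, and 5 of the 6 samples with *Gch1* counts also held *Th* counts. Since *Th* had counts in every sample from P8 on except P8 replicate 1, this overlap shows no more than the shared ages. The amounts did not run in parallel, since P21 replicate 1 had 351 counts of *Th* and none of *Gch1*. Summed over P21 the level was 2.15 CPM, with an exact Poisson 95% interval of 1.45 to 3.07 CPM. *Gch1* did not pass the filter. Without it the slope was positive and passed the threshold (edgeR, adjusted p = 0.00672), on 43 counts in all. The test for any change, also without the filter, missed the threshold (edgeR adjusted p = 0.193). Over all genes, 2021 rose by slope without the filter, against 1729 with it.

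Of the 4 members tested after the filter, only *Qdpr*, the gene of the BH4-regenerating reductase (ENSMUSG00000015806, chromosome 5, 45434021 to 45450236, minus strand), rose with postnatal day. Replicates 1, 2 and 3 had 38.5, 38.9 and 21.1 CPM at P0, 42.9, 59.9 and 28.6 CPM at P4, and 92.5, 80.3 and 57 CPM at P8. They had 116, 91.4 and 100 CPM at P14 and 112, 103 and 101 CPM at P21. All 6 samples of P14 and P21 (91.4 to 116 CPM) lay above all 6 of P0 and P4 (21.1 to 59.9 CPM), as was so for 8.24% of the genes tested. Mean levels were 32.8 ± 10.2 CPM at P0, 76.6 ± 18.1 CPM at P8 and 105 ± 5.74 CPM at P21 (SD, n = 3 each), a 3.2-fold difference between P21 and P0. Its slope per day was 0.085 on the log2 scale (SE 0.0159, edgeR quasi-likelihood test, Benjamini-Hochberg adjusted p = 5.41e-04 over all genes tested). Of the 14293 genes tested, 12.1% had a higher level with day at this threshold and 14.1% a lower one, so 1 of 4 members tested is read against those shares. The test for any change across time points was also passed (adjusted p = 0.00288), and 19.3% of genes passed it.

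The courses of *Qdpr* and *Th* are set side by side without a test. The *Qdpr* mean had reached 76.6 CPM at P8, when *Th* had at most 2.29 CPM in a sample, and differed by 1.03-fold between P14 and P21, where the *Th* mean differed 6.33-fold. No single step between neighbouring time points passed the threshold for *Qdpr* or any other member tested. Over all genes, 1.74% were higher and 0.231% lower from P0 to P4, 0.882% and 0.252% from P4 to P8, 1.29% and 1.38% from P8 to P14, and 0.063% and 0.266% from P14 to P21. The *Qdpr* step from P4 to P8 was 0.80 log2 units (SE 0.318, edgeR adjusted p = 0.315, unadjusted p = 0.0226). The summed oligodendrocyte and PC markers given above were also higher late than early, and their part in the *Qdpr* result was not tested. An antisense gene, *Gm42413*, shares 332 exon bases with *Qdpr* and is not among the gene IDs counted. Whether counting used strand was not stated, so its reads could fall to *Qdpr*.

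*Pts*, the gene of the middle enzyme of BH4 synthesis (ENSMUSG00000032067, chromosome 9, 50521617 to 50528724, minus strand), was present in all 15 samples, from 36.3 to 113 CPM. Its means were 45.2 ± 9.34 CPM at P0, then 66.1 ± 25.2, 59 ± 7.8 and 90.2 ± 20.9 CPM at P4, P8 and P14, and 60.9 ± 9.49 CPM at P21 (SD, n = 3 each). The late samples (53 to 113 CPM) overlapped the early ones (36.3 to 93.7 CPM). Its slope per day was 0.024 on the log2 scale (SE 0.0161, edgeR adjusted p = 0.316), and the test for any change gave an adjusted p of 0.2. Neither passed the threshold.

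Neither monoamine oxidase passed the slope test. *Maoa* (ENSMUSG00000025037, X chromosome, 16619698 to 16687818, plus strand) had 10.4, 4.56 and 10.3 CPM at P0, 20.8, 12.6 and 8.22 CPM at P4 and 19.8, 13 and 24.2 CPM at P8 in replicates 1, 2 and 3. It had 34.4, 22.6 and 27.5 CPM at P14 and 12.4, 26.5 and 19.7 CPM at P21. The highest mean was thus at P14 (28.2 ± 5.94 CPM, SD, n = 3), and P21 overlapped P4 and P8. Its slope per day was 0.063 on the log2 scale (SE 0.0271, edgeR adjusted p = 0.0991). It passed the threshold when P21 replicate 1 was left out (slope 0.08, adjusted p = 0.0454) and when time was taken as log2(day + 1) (adjusted p = 0.0371). Without P0 the slope was 0.035 (adjusted p = 0.479).

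*Maob* (ENSMUSG00000040147, X chromosome, 16709282 to 16817366, minus strand) was scattered. Replicates 1, 2 and 3 had 25.4, 0 and 20.3 CPM at P0 and 2.94, 14.6 and 5.83 CPM at P4. They had 21.8, 12.2 and 0 CPM at P8, then 0, 6.32 and 6.91 CPM at P14, and 5.67, 2.75 and 8.49 CPM at P21. Samples with no count stood beside samples with 100 or more counts at P0 and P8, so the spread within a time point was as wide as that between them. Its slope per day was -0.069 on the log2 scale (SE 0.0651, edgeR adjusted p = 0.488). *Maob* is known in glia as well as in some neurons, and the summed glial markers given above were lower at P21 than at P8. Among them *Fabp7* had a mean of 4662 CPM at P8 and 186 CPM at P21, and *Aqp4*, *Gfap*, *Aldh1l1* and *Gdf10* were lower too. *Slc1a3* (2388 and 2511 CPM), *S100b* (230 and 279 CPM) and *Glul* (140 and 186 CPM) were higher at P21. The part of glia in the *Maob* values was not tested.

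Levels of different genes were compared per kilobase of exon, as RPKM. At P21 the order was *Qdpr* (58.9 ± 3.21 RPKM), *Th* (42.1 ± 29.8), *Pts* (9.99 ± 1.56), *Maoa* (4.68 ± 1.7), *Maob* (2.02 ± 1.03), *Gch1* (0.281 ± 0.27), *Ddc* (0.0717 ± 0.124) and *Dbh* at 0 (SD, n = 3 each). *Th* overlapped both *Qdpr* and *Pts* in its range over samples, *Maoa* overlapped *Maob*, and *Gch1* overlapped *Ddc*. Neighbours whose ranges did not overlap were *Pts* and *Maoa*, and *Maob* and *Gch1*. At P14 *Th* stood in place 4, at 6.63 ± 4.63 RPKM, and overlapped *Maoa* (6.76 ± 1.43 RPKM). Over the summed counts of P21, *Th* was 109-fold above *Gch1* per length, 390-fold above *Ddc* and at least 470-fold above *Dbh*, while *Qdpr* was 1.55-fold above *Th*. P21 replicate 3 held all 6 *Ddc* counts and 21 of the 30 *Gch1* counts but 136 of the 1239 *Th* counts. Within that library *Th* was 17.1-fold above *Gch1* and 42.8-fold above *Ddc*, and without it 324-fold above *Gch1* and at least 694-fold above *Ddc*, whose counts were then 0. The libraries were primed on polyadenylated tails and amplified, which can favour some transcripts and ends over others. The *Th* exon length of 2364 bases includes a first exon far upstream of the RefSeq start, which lowers its RPKM if that exon was not used.

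**Figure D2:**
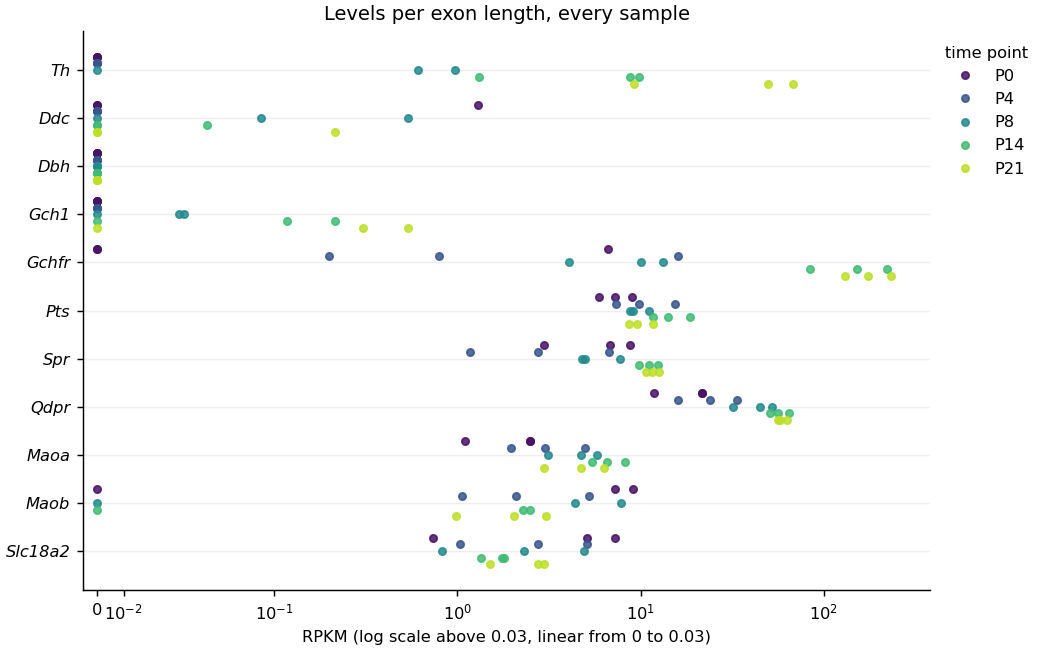
RPKM of every sample (x axis, logarithmic above 0.03 and linear below it) for the 8 genes and 3 partners (rows), coloured by time point. *Th* spreads from 9.21 to 67.4 RPKM at P21 and reaches the level of *Qdpr*, whereas *Ddc* and *Gch1* stay more than 10-fold below *Th* of the same sample in each P21 sample.

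Log2 ratios of pairs of members within a sample (CPM + 1) were compared between the 6 samples of P14 and P21 and the 6 of P0 and P4. Of 21 pairs of the 7 genes other than *Th*, 2 passed (exact two-sided permutation test over 924 regroupings, Benjamini-Hochberg adjusted over the 21 pairs). The log2 ratio of *Ddc* to *Qdpr* was 1.74 units lower late, from -4.77 ± 1.19 to -6.50 ± 0.43 (SD, n = 6 each, exact permutation, adjusted p = 0.0455). That of *Dbh* to *Qdpr* was 1.48 units lower (adjusted p = 0.0455, exact permutation), which, with *Dbh* at 0, restates the *Qdpr* level. *Ddc* had counts in 1 of the 6 early and 2 of the 6 late samples, so that its ratio to *Qdpr* also mostly restates the *Qdpr* level over the pseudocount. Neither call is evidence on *Ddc* or *Dbh*, and with a pseudocount of 0.5 CPM 1 pair passed. The ratio of *Pts* to *Qdpr* was 1.02 units lower and did not pass (adjusted p = 0.0795, exact permutation). The smallest p that this exact permutation test can give before adjustment is 0.00216. Both calls were lost when any 1 sample other than P4 replicate 2 or P21 replicate 3 was left out.

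Other genes of the pathway came from lists of 68 genes, of which 67 were in the files and 46 passed the filter. With postnatal day 11 of the 46 rose and 4 fell (edgeR, adjusted over all genes tested), beside 12.1% and 14.1% of all genes. Over the 46 the median slope per day was -0.0026 on the log2 scale, against -0.0077 over all genes tested. Without the P0 samples, which had been captured as clusters, 4 genes rose.

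Of the 8 genes listed for the cofactor route, 7 were tested and 2 rose, *Qdpr* and *Gchfr*. *Gchfr* (ENSMUSG00000046814, chromosome 2, 119167773 to 119172390, plus strand) encodes the protein that binds GCH1 and mediates its inhibition by BH4 and its stimulation by phenylalanine. Replicates 1, 2 and 3 had 0, 0 and 4.26 CPM at P0, 10.3, 0.129 and 0.514 CPM at P4 and 2.62, 8.58 and 6.51 CPM at P8. They had 54.3, 142 and 97.3 CPM at P14 and 112, 149 and 83.9 CPM at P21. *Gchfr* was thus low up to P8 and high from P14 on. All its P14 and P21 samples (54.3 to 149 CPM) lay above all those of P0 and P4 (0 to 10.3 CPM), as was so for 8.24% of the genes tested. Its mean was 16.6-fold higher at P14 than at P8, and 1.17-fold higher at P21 than at P14. Its slope per day was 0.35 on the log2 scale (SE 0.061, edgeR adjusted p = 2.37e-04), and it held without P0 (adjusted p = 0.00209). The step from P8 to P14, 4.04 log2 units (SE 1.17), missed the threshold (edgeR adjusted p = 0.0847). Per length, *Gchfr* was 4.62-fold above *Th* over the summed counts of P21. *Spr*, for the last step of BH4 synthesis, lay higher in every P14 and P21 sample (34.8 to 44.5 CPM) than in every P0 and P4 sample (4.14 to 31 CPM), as did 8.24% of the genes tested. Its slope of 0.065 (SE 0.024) missed the threshold (edgeR adjusted p = 0.0549). *Pcbd1* and *Pcbd2* did not pass either test.

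**Figure D3:**
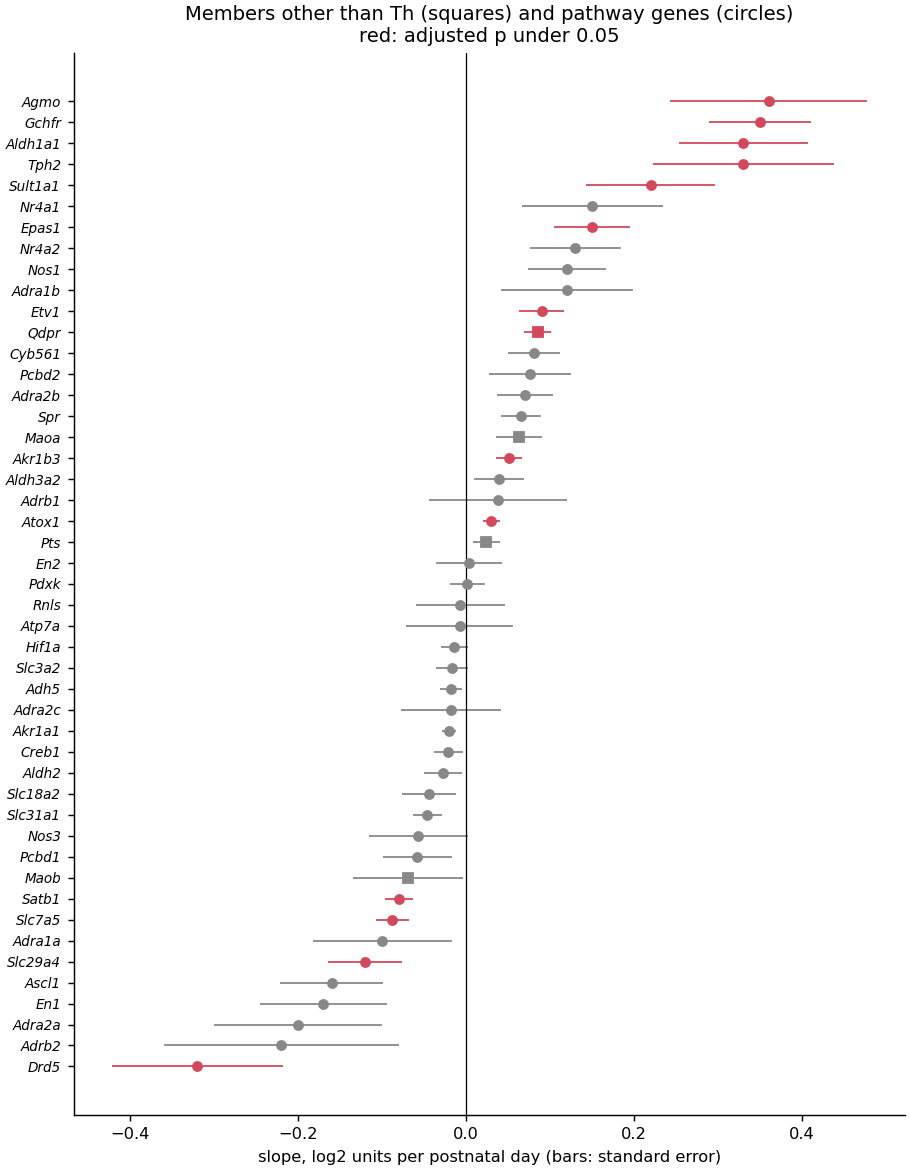
Slope with postnatal day in log2 units per day (x axis, bars are standard errors) for the members other than *Th* (squares) and the pathway genes reported here (circles) that passed the filter, with those of an adjusted p under 0.05 in red. *Qdpr* is the only red square, *Gchfr* stands near the top at 0.35, and *Pts* and *Maob* lie close to or below 0.

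For breakdown, 11 genes were listed beside the oxidases and all were tested, of which 4 rose and none fell. *Akr1b3*, for an aldose reductase, had its highest mean at P14 (86.6 ± 5.23 CPM) and passed the slope test (edgeR adjusted p = 0.0167). All its P14 and P21 samples (58.8 to 92.6 CPM) lay above those of P0 and P4 (30.2 to 45.6 CPM), as was so for 8.24% of the genes tested. *Aldh1a1*, for an aldehyde dehydrogenase, had no count at P0, 2.94, 1.04 and 0.343 CPM at P4 and 21, 27.5 and 25.7 CPM at P8. It stood at 57.8, 35.8 and 38.2 CPM at P14 and 63.4, 44.1 and 45.3 CPM at P21. *Aldh1a1* was thus already well above its early level at P8, when *Th* was near 0, and its step from P4 to P8 passed the threshold (4.14 log2 units, SE 0.668, edgeR adjusted p = 0.00631). *Sult1a1*, for a phenol sulfotransferase, had at most 2.7 CPM up to P8 and 12.4, 20.3 and 4.8 CPM at P21 (edgeR slope adjusted p = 0.0445), a call lost without P0 (0.0562), on log2(day + 1) (0.134) and in 12 of 15 fits that left out 1 sample (up to 0.15), all but those without P0 replicate 2, P4 replicate 1 or P8 replicate 3. Without P0 the call for *Aldh1a1* held (edgeR adjusted p = 0.0258) and that for *Akr1b3* was lost (0.0567).

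Of 9 genes for packing and uptake, 4 were tested and 2 fell. *Slc7a5*, the large neutral amino acid transporter that carries tyrosine and L-DOPA, had means of 79.2 ± 24 CPM at P0 and 27.6 ± 12.5 CPM at P21 (SD, n = 3, slope -0.088, edgeR adjusted p = 0.00243). *Slc29a4*, the plasma membrane monoamine transporter, had 47.5 ± 5.71 CPM at P0 and 10.2 ± 7.93 CPM at P21 (slope -0.12, adjusted p = 0.0429). The *Slc29a4* call was lost without P0 (adjusted p = 0.172), with the replicate block (0.0543) and in 10 of 15 fits that left out 1 sample (up to 0.0965), all but those without P4 replicate 3, a P8 sample or P21 replicate 1. The *Slc7a5* call was lost on log2(day + 1) (adjusted p = 0.0921). For both genes, every P14 and P21 sample lay below every P0 and P4 sample, as was so for 7.14% of genes. *Slc18a2*, the vesicular monoamine transporter that packs catecholamines, was seen in every sample, from 3.85 to 37.9 CPM. Its mean was 22.8 ± 17.4 CPM at P0 and 12.6 ± 4.15 CPM at P21, with a slope of -0.044 that missed the threshold (edgeR adjusted p = 0.354). The noradrenaline transporter gene *Slc6a2* had no count in any sample, and the dopamine transporter gene *Slc6a3* had 4 counts, all in P4 replicate 3. Of the 5 markers listed for noradrenergic or dopaminergic neurons, *Slc6a2* and *Phox2a* were among those at 0 in all 15 samples, and nearly all of the summed level was *Slc18a2*.

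For supply of vitamin B6, which DDC needs, and copper, which DBH needs, 7 genes were listed and 6 tested, of which 2 rose. *Atox1*, a copper chaperone, had a slope of 0.03 (edgeR adjusted p = 0.0352). The call was lost without P0 (adjusted p = 0.192) and without any 1 P0 sample, P4 replicate 3, P14 replicate 2 or P21 replicate 2, the last giving a slope of 0.017 (adjusted p = 0.241).

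Of 7 other genes whose products use BH4, 4 were tested. *Nos1*, for neuronal nitric oxide synthase, had 6.35, 11.1 and 5.47 CPM at P0, 1.23, 13.5 and 3.43 CPM at P4 and 61.1, 38.9 and 58.4 CPM at P8. Its means were 41.3 ± 11.9 CPM at P14 and 38.3 ± 5.49 CPM at P21 (SD, n = 3 each). It changed across time points (edgeR adjusted p = 0.00443) with its step at P4 to P8 (3.10 log2 units, SE 0.66, adjusted p = 0.0293), and its slope missed the threshold (adjusted p = 0.0616). The slope passed on log2(day + 1) (adjusted p = 0.0168), with DESeq2 (0.0282) and without P8 replicate 1 (0.033) or 3 (0.0354). Without P0 it missed (edgeR adjusted p = 0.42). The step call was lost without P4 replicate 1 or 3 or any 1 P8 sample (adjusted p up to 0.12). *Tph2*, for the neuronal tryptophan hydroxylase, and *Agmo*, for alkylglycerol monooxygenase, rose (edgeR adjusted p = 0.0293 and 0.0296), from no count at P0 and P4 to at most 6.7 and 8.28 CPM in a late sample. Both calls were lost without P0 (adjusted p = 0.176 and 0.214), with DESeq2 (0.0835 and 0.0564) and without any 1 sample of P0 or P4, that of *Tph2* also with the replicate block (0.0768) or without P21 replicate 3 (0.068), and that of *Agmo* without P14 replicate 1 (0.0501).

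Of 16 genes listed as regulators of *Th*, 10 were tested, of which 2 rose and 1 fell. *Etv1*, an ETS factor of dopaminergic neurons, had means of 19.5 ± 3.73 CPM at P0, 80.3 ± 42.7 CPM at P14 and 50.4 ± 29.9 CPM at P21 (SD, n = 3, slope 0.09, edgeR adjusted p = 0.0165). *Epas1*, the hypoxia-inducible factor 2 alpha gene, had means of 4.91 ± 4.98 CPM at P0 and 29.4 ± 1.63 CPM at P21 (slope 0.15, adjusted p = 0.0185). Both calls were lost without P0 (adjusted p = 0.139 and 0.0606), and that of *Etv1* also without P21 replicate 3 (0.0516). *Satb1*, for a chromatin organizer, fell from 69.2 ± 12.7 CPM at P0 to 22.5 ± 3.9 CPM at P21 (slope -0.08, adjusted p = 0.00148). *Nr4a2* had means of 3.27 ± 2.6 CPM at P0 and 13.8 ± 5.76 CPM at P21 and missed the threshold (slope 0.13, adjusted p = 0.0819). *Phox2a*, *Pitx3* and *Foxa2*, which specify noradrenergic or dopaminergic neurons, had no count in any of the 15 samples.

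Of 14 receptor genes, 8 were tested, none rose and 1 fell. *Drd5*, a dopamine receptor gene, had at most 8.54 CPM up to P8 and at most 0.192 CPM at P14 and P21 (slope -0.32, edgeR adjusted p = 0.0261). The call was lost on log2(day + 1) (adjusted p = 0.144) and without P0 replicate 1 (0.0552), P21 replicate 1 (0.0631) or P21 replicate 2 (0.0672). *Adra2b*, an adrenergic receptor gene, changed across time points (adjusted p = 0.033), with means of 12.4 ± 7.74 CPM at P0, 50.9 ± 4.68 CPM at P14 and 27.5 ± 10.3 CPM at P21 (SD, n = 3). This call was lost without P4 replicate 1 or 3 or any 1 sample of P8 or P14 (edgeR adjusted p up to 0.0847).

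The course of *Th* was set against that of 11279 other genes whose mean reached 10 CPM at 1 or more ages, by Pearson's r of log2(CPM + 1) over the 15 samples. Samples of one age share that age, so r is a description. The 10 most alike were *Sel1l* (0.973), *Sec62* (0.963), *Mlph* (0.96), *Prkab2* (0.945), *Gnao1* (0.943), *Dao* (0.941), *Ube2r2* (0.941), *Gm10157* (0.94), *Eif1* (0.936) and *Gm12346* (0.933). *Dao*, for D-amino acid oxidase, and *Mlph*, for the melanosome transport protein melanophilin, shared with *Th* a level near 0 at P0 and P4 and their highest mean at P21 (25.6 and 28 CPM). *Gm10157* and *Gm12346* are predicted genes. None of the members was among these. *Qdpr* took place 972 (r = 0.715), *Maoa* place 2647 (0.45), *Pts* place 3418 (0.339) and *Maob* place 6436 (-0.113), while *Gchfr* took place 76 (0.887). The 6 PC markers took places 113 (*Pcp4*, 0.875), 411 (*Car8*), 593 (*Ppp1r17*), 645 (*Pcp2*), 721 (*Calb1*) and 788 (*Itpr1*, 0.742). Some markers of other cell types moved with *Th* too. The oligodendrocyte gene *Mobp* took place 35 (0.906), with means of 0, 0.164, 0.269, 13.5 and 56.4 CPM from P0 to P21, and the other 4 oligodendrocyte markers places 393 to 1552. The granule neuron gene *Gabra6* took place 286 (0.834), with 4.25 CPM at P8, 103 CPM at P14 and 63.5 CPM at P21. The other granule neuron markers listed did not follow *Th*, with *Cbln1* at place 4616 (0.159) and *Neurod1* at place 7562 (-0.289). The part of other cell types in the *Th* and *Gchfr* values was not tested.

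After the values had been seen, the order of the 3 replicates was compared with that of *Th* at P8, P14 and P21. *Gchfr* and *Aldoc* had the order of *Th* at all 3 ages, as did 61 of 11280 genes (0.541%) whose mean reached 10 CPM at 1 or more ages. That count includes *Gchfr*, *Aldoc* and *Th* itself. *Aldoc*, the zebrin II gene that marks a subset of PCs in bands, had 1662, 3150 and 2108 CPM in replicates 1, 2 and 3 at P8, 10615, 17881 and 17115 CPM at P14 and 12481, 18760 and 9062 CPM at P21. *Th* was at its lowest in the P14 and P21 replicates in which *Aldoc* was also lowest. *Plcb3*, which is also known from zebrin-positive PCs, kept the order at 2 of the 3 ages, *Slc1a6* and *Pts* at 1, and *Qdpr*, *Maoa* and *Maob*, and the zebrin-negative markers *Plcb4* and *Ebf2*, at none. These are replicates without a link across ages, and the pattern was not tested.

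**Figure D4:**
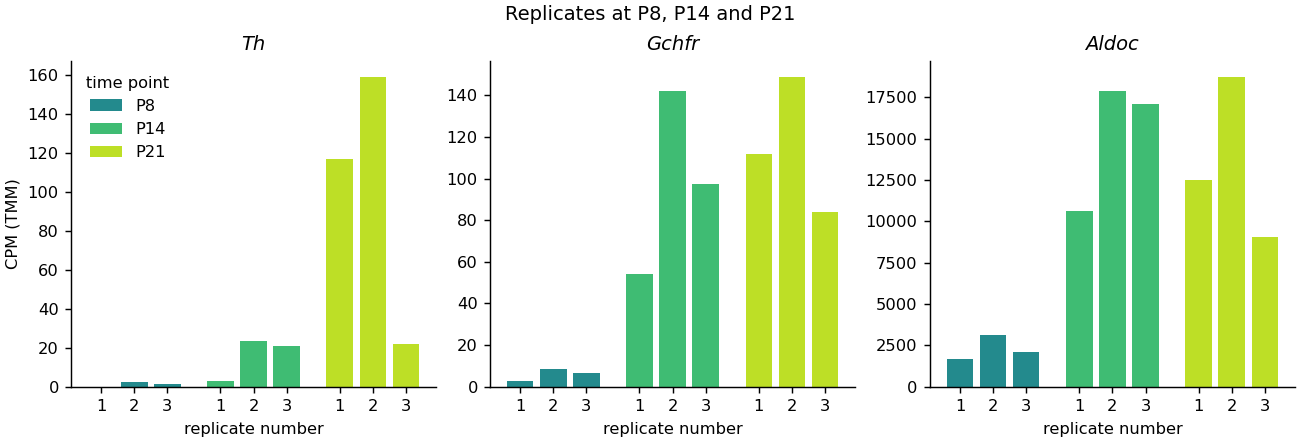
CPM (y axes, each with its own range) of *Th*, *Gchfr* and *Aldoc* in replicates 1, 2 and 3 of P8, P14 and P21 (bars, coloured by time point, 1 library each). In all panels replicate 2 is the highest at each of the 3 ages, while *Th* differs far more between P14 and P21 than *Gchfr* and *Aldoc* do.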

How the data were processed

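RNA of laser-captured PCs was sequenced in 15 samples, 3 per time point, grouped by the labels. The authors aligned reads to GRCm38/mm10 with GSNAP, kept unique reads and tallied them per Ensembl gene with HTSeq, and the deposited values are raw counts. The annotation release they used is not given in the sources used here. Tallies outside genes, between 18.2% and 31% of all per sample, were left out. GENCODE M21 named 36723 of 38561 IDs and gave exon lengths, and RefSeq gave the promoter sequences.

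Counts were normalized by TMM, filtered with filterByExpr and tested with the quasi-likelihood test of edgeR 4.0.16 in R 4.3.3, with Benjamini-Hochberg adjustment at 0.05. Day entered as a number (slope), as a factor (any change) and by neighbouring steps. Tests were tried on simulated counts. DESeq2 1.42.0 served as an alternative, and Python 3.11.15 with scipy 1.17.1 gave exact permutation tests. Named were all members, pathway genes that passed the slope or any-change test or whose absence bears on a member, and the 10 genes most like *Th*. *Spr*, *Slc18a2*, *Nr4a2*, *Pnmt*, *Pcbd1*, *Pcbd2*, *Aldoc* and the other zebrin markers were added after their values were seen. The members and lists were chosen with earlier results of these data known. A few listed genes are not reported here. Alternatives covered scaling, filter, tool, time scale, block, P0 and each sample left out, and the level of *Th* per length without P21 replicate 3 was added after seeing the data.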

Additional observations from a re-analysis of the deposited data

How the results depend on the processing

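Of 2135 values recomputed under alternatives to the tests, none changed sign where it or its alternative was called, while 113 lost a call, and 16 beside the 2 of *Maoa* gained one. The *Qdpr* slope stayed past the threshold in every alternative run (0.074 to 0.092 with 1 sample left out, 0.07 without P0), and *Gchfr* likewise (0.33 to 0.40 with 1 sample left out). The *Maoa* slope, 0.048 to 0.08 with 1 sample left out, passed the threshold on log2(day + 1) (0.35) and without P21 replicate 1. The members that rose numbered 2 in place of 1 without the filter (*Gch1* added) and on log2(day + 1) (*Maoa* added), and 1 to 2 with 1 sample left out. No member passed a single step under any tool, edgeR and DESeq2 included, and those with an unadjusted p under 0.05 in edgeR were *Qdpr* from P4 to P8 (0.0226) and, without the filter, *Ddc* from P0 to P4 (0.0355). Pathway genes that rose numbered 4 without P0 (1411 of all genes, against 1729 with P0) and 6 to 12 with 1 sample left out (6 without P4 replicate 3, 7 without P0 replicate 1 or P21 replicate 3). Those that fell numbered 2 on log2(day + 1) (1476 of all genes, against 2021 on day), 7 with DESeq2 (2307 of all genes) and 3 to 7 with 1 sample left out (7 without P21 replicate 3). Over all genes, 1570 to 1814 rose and 1800 to 2161 fell with 1 sample left out. Those that changed in any pattern numbered 9, and 16 with DESeq2 (2753 and 3925 of all genes). DESeq2 also called more genes over all at each step (483 rising from P0 to P4, against 248 in edgeR). By step, 1 pathway gene rose from P0 to P4, and 2 without the filter or with DESeq2, which also had 1 falling, and 0 to 2 with 1 sample left out. From P4 to P8 it was 2, and 1 to 2 with 1 sample left out. From P8 to P14 it was 0, 1 without the filter, 1 rising and 1 falling with DESeq2, and 0 to 1 with 1 sample left out. The causes were not tested.

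Pairs of members past the threshold numbered 2, 1 with a pseudocount of 0.5 CPM, 0 without P0 (P4 alone against P14 and P21, smallest adjusted p = 0.333, exact permutation) and 0 to 2 with 1 sample left out. With the replicate block no pair passed (0, smallest adjusted p = 0.0972, exact permutation), where 0.00926 is the smallest unadjusted p of the 216 regroupings. The labels give only a number, and samples with the same number were no closer in their deviations (mean r -0.0036 over 30 pairs, against 0.0018 over 60 pairs with different numbers). The block left *Qdpr* called (slope 0.087). Depth limits the genes under the filter, for which a sample without counts holds fewer than about 3 reads.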
